A study of Mus musculus with 18 samples.

Results

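The clustered histone genes are the many near-identical copies, lying side by side on a few chromosomes, that encode the core histones and the linker histone of chromatin. Taken by name, as rows whose symbol begins with Hist, a digit and h, they were 9 of the 25209 genes listed for each of 18 libraries. All 9 reached 1 TPM in at least 3 libraries (TPM is a gene's share of the library's transcripts, corrected for transcript length and scaled to a fixed total). Hist1h2an, Hist1h2ao, Hist1h2ap and Hist1h2al are named as genes of histone H2A, Hist1h2bp, Hist1h2bq and Hist1h2br as genes of H2B, and Hist1h4m and Hist1h4n as genes of H4. A further 60 clustered histone genes stood in the same tables under newer symbols. They are outside the rule and are described last.

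The 6 groups of 3 libraries each were made from 3T3-L1, a mouse fibroblast line able to turn into fat cells on induction. The Control group carries no inducer in its label. Induction, in cells held for 2 days at confluence, used 10 µg/mL insulin, 0.25 µM dexamethasone (a glucocorticoid) and 0.5 mM IBMX (a phosphodiesterase inhibitor) for 48 h, followed by 5 µg/mL insulin with a medium change every 2 days. The groups MCE1 and MCE2 are stages of mitotic clonal expansion, the cell divisions that induced 3T3-L1 cells pass through, and Day4, Day6 and Day8 are later days of differentiation. No hour is given for MCE1 or MCE2, and nothing says whether Control cells had stopped dividing or whether replicates were separate cultures, so p-values here cover only the spread between these libraries. The line is a single established one, with no genetic change between groups.

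Clustered histone genes supply the histones that package newly copied DNA, and their mRNAs are made mostly while DNA is being replicated. Unlike other mRNAs, these usually end in a short stem-loop bound by the protein SLBP and carry no poly(A) tail, while some histone genes can also use an ordinary polyadenylation signal downstream. The libraries were made from RNA selected for poly(A) tails, so each level below is that of RNA that passed this selection and not of all histone mRNA.

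Marker genes were summed to check the labelled cells. The 12 fat cell markers summed to 77.2 to 85.3 TPM in Control, with 6 of them listed at 0 in all 3 libraries, and to 24521 to 28012 TPM at Day8, with none at 0. The 10 fibroblast markers stood at 11040 to 11576 TPM in Control, 6752 to 6990 at MCE1, 6308 to 6602 at MCE2 and 12683 to 17484 at Day8. At MCE1 against Control, where histone genes rose, 2 were called higher and 7 lower, beside 22% and 29.4% of all genes tested. At Day8 against Control 4 were higher and 5 lower, beside 31.7% and 39.7%. The part of these markers in the rise of histone genes at MCE1 was not tested. Macrophage markers summed to 16.9 to 19.9 TPM in Control and to 5.95 to 11.5 TPM in the other groups with 3 or 4 of 8 at 0, endothelial markers to at most 1.72 TPM, and skeletal muscle markers to 7.96 to 10.2 TPM in Control and at most 3.14 TPM elsewhere with 4 of 6 at 0. Control replicate 1 listed 12 genes at another locus than the other libraries, and these were left out; none was a clustered histone gene. Depth is unknown because TPM keeps no read counts, and Pearson's r between replicates was 0.976 to 0.991 across genes, which are not independent replicates.

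The 3′ ends of these genes are shown first, because the libraries were selected for poly(A) tails. Sequences are from GENCODE release M21 (GRCm38) transcripts, written as DNA from 5′ to 3′. In the first lines the capitals mark the stem-loop, found on the transcript strand as a stem of 6 bases beginning with GG, the loop TTTC and the stem's reverse complement. It was present in transcripts of 5 of the 9 genes, in 35 of 70 genes named by the same pattern in that annotation, and in 42 of all 55341 genes (0.0759%).
Hist1h2ao: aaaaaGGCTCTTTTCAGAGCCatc
Hist1h2ap: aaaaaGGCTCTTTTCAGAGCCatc
Hist1h2bp, short transcript: acaaaGGCTCTTTTCAGAGCCacc
Hist1h4m: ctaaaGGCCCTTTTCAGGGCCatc
Hist1h4n: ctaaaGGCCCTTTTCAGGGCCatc
The H2A and H2B copies held the same stem-loop, and both H4 copies another. In the next lines the capitals mark AATAAA, the common polyadenylation signal, in the last 50 bases of an annotated transcript. It was found there in 3 of the 9 genes, all of the H2B type, against 36.5% of all 55341 genes.
Hist1h2bp, long transcript: acattataaaAATAAAggtttcaatc
Hist1h2bq: aagaatattaAATAAAtttgtttctt
Hist1h2br: aagaatattaAATAAAtttgtttctt
Neither site was found in the annotated transcripts of Hist1h2an and Hist1h2al, whose models are 393 and 339 bases long, and the absence of these letters from a model says nothing of the RNA beyond its end. Hist1h2al is annotated as a processed pseudogene in GENCODE and as a transcribed pseudogene in RefSeq.

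In the deposited tables (mm9 build, positions from 1) the genes lay on chromosome 13, 8 of them within one stretch of the large histone cluster. Hist1h2an took up 21878643 to 21879117 and Hist1h2bp, its H2B neighbour 239 bases on, 21879357 to 21879812, with the end at 21881082 in MCE1 replicate 2. Hist1h2bq and Hist1h2br were listed on one and the same interval, 21898281 to 21902068. Hist1h2ao (21902236 to 21902787) contained the whole 452 bases of Hist1h2ap (21902336 to 21902787). Hist1h4m followed at 21903615 to 21904019 and Hist1h4n at 21923661 to 21924066, and Hist1h2al stood alone at 51295453 to 51298435.

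**Figure D1:**
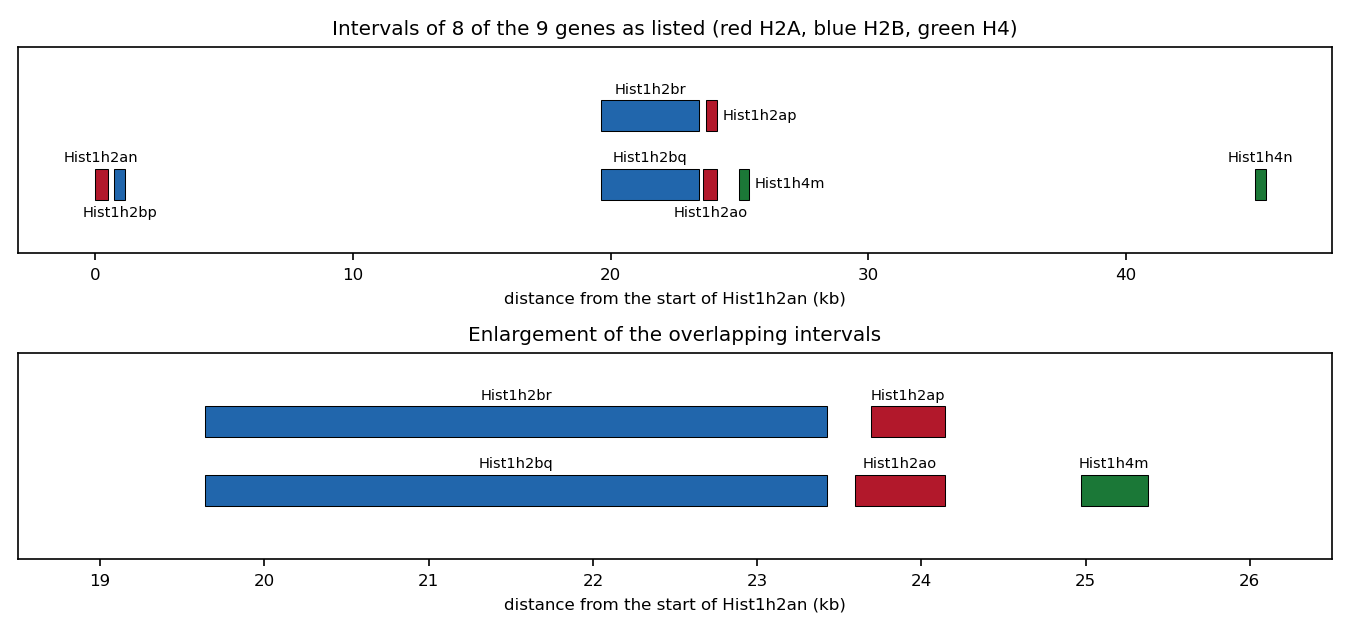
Intervals of 8 of the 9 genes as the tables list them, against distance in kb from the start of Hist1h2an (boxes to scale, coloured by histone type; the upper row only separates boxes that overlap). Hist1h2bq and Hist1h2br share 1 interval of 3788 bases, and Hist1h2ap lies wholly within Hist1h2ao.

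The copies are also hard to tell apart by sequence. Of the 50-base stretches in its GENCODE transcripts, Hist1h2bq shared 97.3% with at least 1 other gene, Hist1h2ao 93.5%, Hist1h2ap 93.1%, Hist1h4m 89.8%, Hist1h2br 88.7%, Hist1h2an 85.8%, Hist1h4n 85.6%, Hist1h2al 67.6% and Hist1h2bp 44.1%. How reads matching several copies were divided is not given in the sources used here, so the level of a single copy is uncertain, and for the overlapping pairs the sum of both is given as well. RefSeq places the members of each overlapping pair at separate loci in GRCm38.p6.

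Promoters are shown for 3 genes whose levels followed unlike courses or, for the first pair, a like one: the 250 bases before the RefSeq start (GRCm38.p6), 5′ to 3′ on the gene's strand. Capitals mark CCAAT and TATAA, searched on both strands (ATTGG and TTATA on the other), which do not overlap each other here. Of 32851 RefSeq windows that run from 250 bases before to 50 after a start, 37.4% held CCAAT and 24.9% TATAA.
Hist1h2an, GRCm38.p6 chr13:21787249-21787498, minus strand: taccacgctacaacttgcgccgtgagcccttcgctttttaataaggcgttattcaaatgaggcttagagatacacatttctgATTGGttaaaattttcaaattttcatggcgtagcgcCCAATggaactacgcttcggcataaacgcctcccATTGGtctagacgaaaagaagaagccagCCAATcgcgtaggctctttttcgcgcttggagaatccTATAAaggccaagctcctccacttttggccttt
Hist1h2ap, GRCm38.p6 chr13:21833476-21833725, minus strand: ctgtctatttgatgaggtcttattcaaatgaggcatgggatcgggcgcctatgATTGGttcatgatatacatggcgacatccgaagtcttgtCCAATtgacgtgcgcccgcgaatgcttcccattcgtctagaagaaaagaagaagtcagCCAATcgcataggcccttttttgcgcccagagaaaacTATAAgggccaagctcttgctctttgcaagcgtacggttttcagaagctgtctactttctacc
Hist1h4m, GRCm38.p6 chr13:21811496-21811745, plus strand: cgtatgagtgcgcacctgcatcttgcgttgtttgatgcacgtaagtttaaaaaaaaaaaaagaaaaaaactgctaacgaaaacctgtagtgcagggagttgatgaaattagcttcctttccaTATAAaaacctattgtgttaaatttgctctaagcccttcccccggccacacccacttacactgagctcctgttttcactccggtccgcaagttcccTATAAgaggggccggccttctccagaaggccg
Both H2A promoters held several CCAAT, 4 in Hist1h2an and 3 in Hist1h2ap, and 1 TATAA each, which began 33 bases before the start in Hist1h2an and 63 in Hist1h2ap. The H4 promoter held 0 CCAAT and 2 TATAA, the nearer 32 bases before the start. The low H2B genes, not printed here, held like counts to the H2A genes in their 300-base windows. Hist1h2bp held 4 CCAAT, Hist1h2bq and Hist1h2br 3 each, and all of them 1 TATAA. That TATAA was on the other strand (TTATA), 211 bases before the start in Hist1h2bp and 209 in Hist1h2bq and Hist1h2br. The windows of Hist1h2bp, Hist1h2bq and Hist1h2br overlap those of Hist1h2an, Hist1h2ao and Hist1h2ap, in that order, on the opposite strand. Sites in the overlap were counted for both genes. Hist1h2ao held 3 CCAAT and 1 TATAA, the latter after the start. Hist1h4m and Hist1h4n shared a run of 285 identical bases in these 300-base windows, Hist1h2ao and Hist1h2ap 200, and Hist1h2bq and Hist1h2br all 300. The windows of Hist1h2an and Hist1h2bp, which point away from each other, shared 261 bases on opposite strands.

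Across the course, 6 of the 9 genes followed 3 patterns, and the 3 H2B genes stayed low. The H2A genes Hist1h2an, Hist1h2ao and Hist1h2ap rose at MCE1 and were far lower from Day4 on. Both H4 genes rose at MCE1, had their highest mean at MCE2 and overlapped Control again at Day8. Hist1h2al rose at MCE1 and again at Day4 and had its highest level at Day6. The 3 H2B genes reached at most 2.34 TPM in any library. The F test over the 6 group means called 7 of the 9 genes, against 87.6% of all 12695 genes tested. A limma adjusted p under 0.05 was the threshold for this and every call below. Hist1h2bp and Hist1h2br were not called. The sum of Hist1h2bq and Hist1h2br, an alternative added after seeing the data, was called (F test, limma adjusted p = 0.000863). Summed over all 9 genes, the level was 124 ± 8.73 TPM in Control, 387 ± 53.4 at MCE1, 169 ± 52.9 at MCE2, 63.9 ± 2.46 at Day4, 66.7 ± 1.80 at Day6 and 41.4 ± 7.23 at Day8 (mean ± SD, n = 3, as in all such values below). Most of this sum was Hist1h2ao and Hist1h2ap in the first 3 groups and Hist1h2al in the last 3. In RNA from whole cultures, fewer cells that make a transcript and less of it per cell cannot be told apart.

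**Figure D2:**
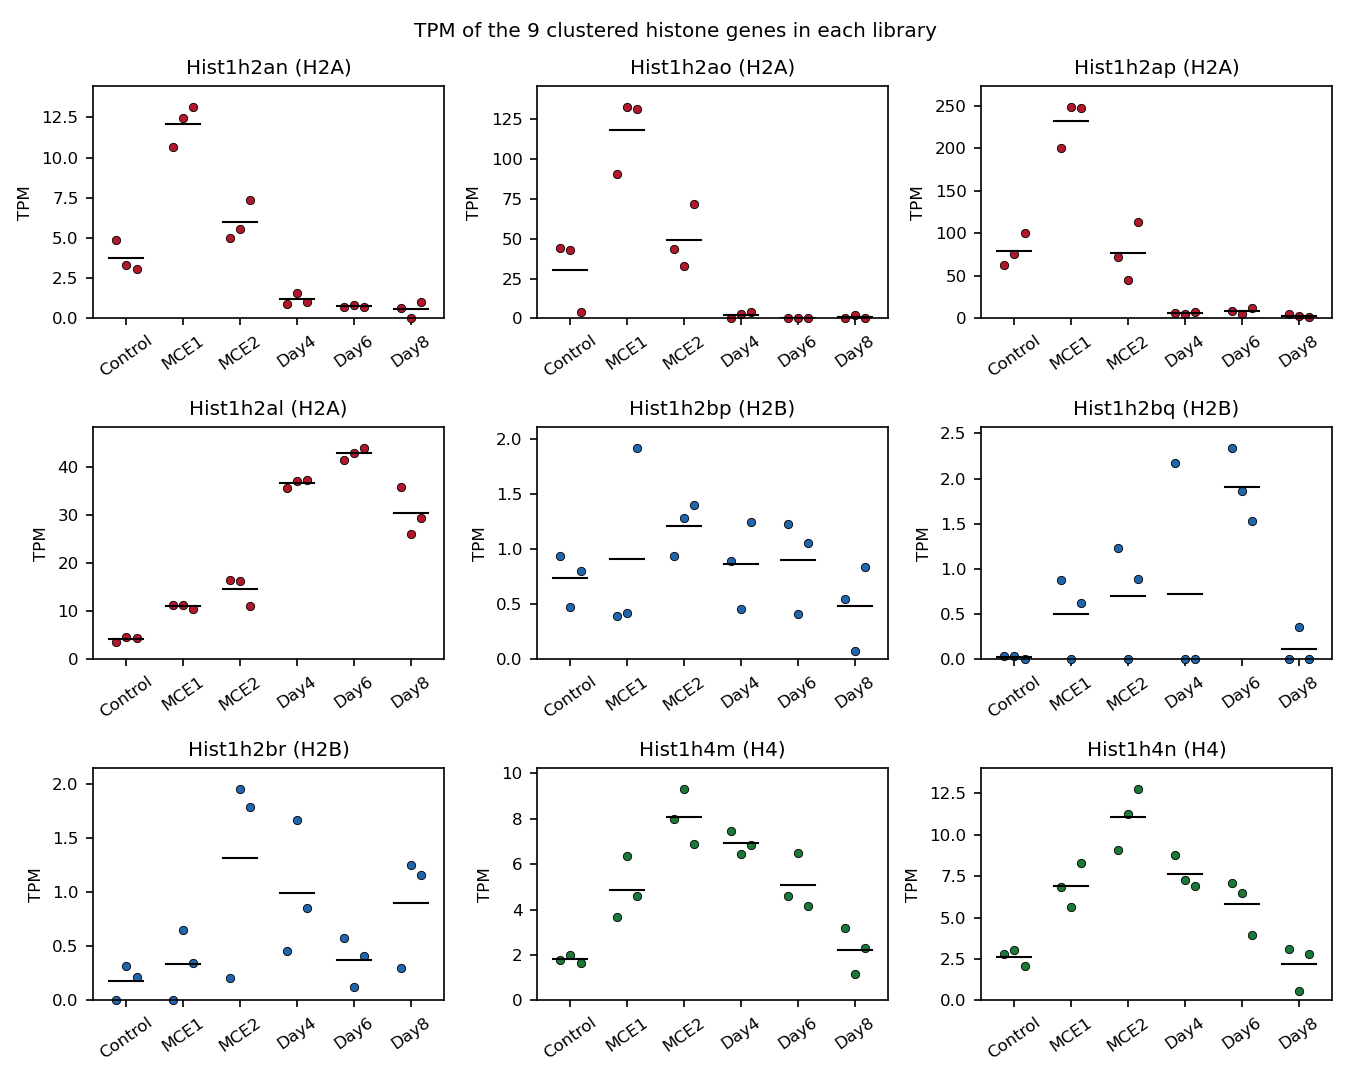
TPM of each gene in each of the 3 libraries of a group (points; replicate 1 to 3 from left to right) with the group mean (line), each panel on its own linear axis. Means are highest at MCE1 for Hist1h2an, Hist1h2ao and Hist1h2ap, at MCE2 for the H4 genes and at Day6 for Hist1h2al. Hist1h2bq and Hist1h2br scatter between replicates.

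Hist1h2ap, an H2A gene that ends in the stem-loop shown above, had the highest level. Its libraries read 63.0, 76.2 and 99.97 TPM in Control and 201, 248 and 247 TPM at MCE1, so every MCE1 library was above every Control library. The level rose 2.91-fold in the mean (log2 fold change 1.55, SE 0.33, limma adjusted p = 0.001). At MCE2 the libraries read 72.8, 44.9 and 113 TPM, all under those of MCE1 and on both sides of those of Control (log2 fold change -1.67, SE 0.33, limma adjusted p = 0.000724 against MCE1). At Day4 they read 6.18, 4.92 and 7.97, at Day6 8.56, 5.22 and 12.0 and at Day8 5.10, 3.16 and 2.06 TPM, and each of these 9 values was below every value of the first 3 groups. The fall from MCE2 to Day4 was the larger step (log2 fold change -3.33, SE 0.33, limma adjusted p = 6.18e-07). Against Control, Day8 stood at 3.44 ± 1.54 compared with 79.7 ± 18.8 TPM (log2 fold change -4.22, SE 0.33, limma adjusted p = 1.16e-08). Day8 was also called below Day6 (log2 fold change -1.10, SE 0.33, limma adjusted p = 0.0263), but this call was lost without Day6 replicate 1 (adjusted p = 0.0679) or 3 (0.117) without Day8 replicate 2 (0.0608) or 3 (0.103), and in a fit of these 6 libraries alone (0.0902).

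Hist1h2ao, the H2A gene listed around Hist1h2ap, moved in the same directions up to Day4 but with a wider spread. From Day4 to Day6 and from Day6 to Day8 its log2 fold changes were -1.12 and 0.33, neither called. Those of Hist1h2ap were 0.34 and -1.10, of opposite sign. It read 44.1, 43.2 and 3.94 TPM in Control, 90.7, 132 and 131 at MCE1 and 43.3, 32.9 and 71.7 at MCE2. Control replicate 3 was far below both other Control libraries, and in that same library Hist1h2ap was at its highest for Control. In the later groups Hist1h2ao read 0.129, 2.72 and 4.31 TPM at Day4, 0.273, 0.213 and 0.4 at Day6 and 0.304, 2.29 and 0 at Day8, so Day4 replicate 1 and Day8 replicates 1 and 3 were far below the other replicates of their groups. The rise at MCE1 was called (log2 fold change 2.45, SE 0.73, limma adjusted p = 0.0111), but without Control replicate 3 the log2 fold change was 1.39 and the call was lost (adjusted p = 0.0579), as it was with a pseudocount of 0.1 (adjusted p = 0.087) and in a fit of these 6 libraries alone (adjusted p = 0.0501). The fall from MCE2 to Day4 (log2 fold change -4.09, SE 0.73, limma adjusted p = 0.000247) and the difference of Day8 from Control (log2 fold change -3.72, SE 0.73, limma adjusted p = 0.000294) were called, while the fall from MCE1 to MCE2 was not (log2 fold change -1.30, SE 0.73, limma adjusted p = 0.178), although the libraries did not overlap. A fit of those 6 libraries alone called it (adjusted p = 0.0109).

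The share of the pair's sum that stood on Hist1h2ao took 1 of 2 levels. In 11 libraries it was 31.1 to 42.3%, and in the other 7 it was 0 to 5.63%; no library lay between. The low shares were in Control replicate 3, Day4 replicate 1, all 3 Day6 libraries and Day8 replicates 1 and 3. In Control the sum was 107, 119 and 104 TPM, closer together than either gene. At MCE1 it was 291, 381 and 378, at MCE2 116, 77.8 and 185, at Day4 6.31, 7.64 and 12.3, at Day6 8.83, 5.43 and 12.4 and at Day8 5.40, 5.46 and 2.06 TPM. The Control and MCE1 libraries did not overlap, and neither did those of MCE2 and Day4. Fitted in place of the separate genes, an alternative chosen after seeing the data, the sum rose at MCE1 (log2 fold change 1.65, SE 0.34, limma adjusted p = 0.000829), fell at MCE2 (log2 fold change -1.54, SE 0.34, limma adjusted p = 0.0019) and again at Day4 (log2 fold change -3.67, SE 0.34, limma adjusted p = 3.47e-07), and was lower at Day8 than in Control (log2 fold change -4.47, SE 0.34, limma adjusted p = 9.55e-09). Day8 against Day6 was not called for the sum (log2 fold change -0.91, SE 0.34, limma adjusted p = 0.0725), except without Day6 replicate 2 (0.0317).

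**Figure D3:**
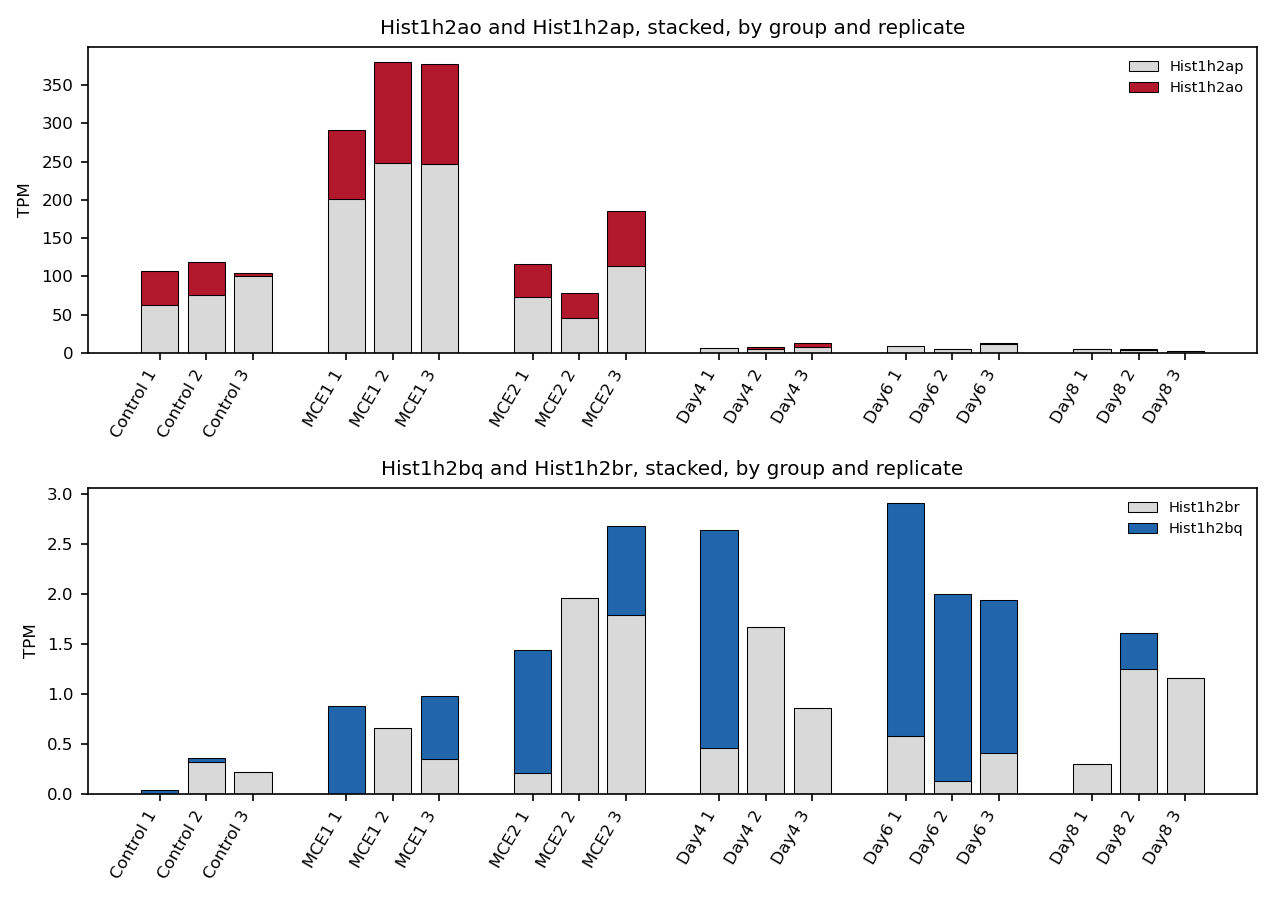
TPM of both genes of each overlapping pair, stacked, in each library (linear axes from 0; groups in order, replicates 1 to 3). In the upper panel Control replicate 3 has almost no Hist1h2ao but a total near that of both other Control libraries, and in the lower panel 7 of 18 libraries list Hist1h2bq at 0.

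Hist1h2an, an H2A gene lying apart from that pair, moved in the same directions up to Day4, and its listed interval overlaps none of the others. Its sequence is not separate, since 85.8% of its 50-base stretches were shared with other genes, 23 in all. Reads from other copies may therefore be part of its level, which was not tested. Hist1h2an read 4.85, 3.33 and 3.07 TPM in Control and 10.6, 12.5 and 13.1 TPM at MCE1, with no overlap (log2 fold change 1.48, SE 0.23, limma adjusted p = 4.32e-05). The libraries read 5.00, 5.58 and 7.38 TPM at MCE2, all below those of MCE1 and above those of Control (log2 fold change -0.92, SE 0.23, limma adjusted p = 0.00374 against MCE1). With a pseudocount of 0.1 in place of 1 this fall was not called (-1.02, adjusted p = 0.201). At Day4 they read 0.888, 1.61 and 1.04 TPM, below every earlier library (log2 fold change -1.68, SE 0.23, limma adjusted p = 1.34e-05). Day6 stood at 0.727, 0.842 and 0.686 and Day8 at 0.674, 0 and 1.03 TPM, with replicate 2 of Day8 listed at 0. Day8 was lower than Control (log2 fold change -1.64, SE 0.23, limma adjusted p = 7.12e-06).

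Both H4 genes encode the histone that pairs with H3 at the centre of the nucleosome and hold the other stem-loop shown above. Their means were highest at MCE2, while those of Hist1h2an, Hist1h2ao and Hist1h2ap were highest at MCE1. Hist1h4m read 1.80, 1.99 and 1.64 TPM in Control, 3.66, 6.37 and 4.59 at MCE1 and 8.00, 9.30 and 6.87 at MCE2, and the 3 groups did not overlap. The rise at MCE1 was called (log2 fold change 1.04, SE 0.22, limma adjusted p = 0.000792). So was the further rise at MCE2 (log2 fold change 0.64, SE 0.22, limma adjusted p = 0.0256), a call that was lost without MCE1 replicate 1 (adjusted p = 0.121) or 3 (0.0666) and without MCE2 replicate 1 (0.0595) or 2 (0.0927). It then read 7.47, 6.45 and 6.86 TPM at Day4, 4.59, 6.49 and 4.18 at Day6 and 3.17, 1.17 and 2.32 at Day8. The Day4 libraries overlapped those of MCE2, and that step was not called (log2 fold change -0.19, SE 0.22, limma adjusted p = 0.506). Day8 lay below every Day6 library (log2 fold change -0.95, SE 0.22, limma adjusted p = 0.00551; 0.0763, not called, in a fit of these 6 libraries alone) and overlapped Control (log2 fold change 0.15, SE 0.22, limma adjusted p = 0.552).

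Hist1h4n, nearly the same in sequence as Hist1h4m, read 2.79, 3.06 and 2.10 TPM in Control, 6.88, 5.62 and 8.32 at MCE1, 9.11, 11.3 and 12.8 at MCE2, 8.79, 7.26 and 6.94 at Day4, 7.08, 6.47 and 3.98 at Day6 and 3.11, 0.577 and 2.83 at Day8. Replicate 2 of Day8 was the lowest library for both H4 genes. Hist1h4n rose at MCE1 (log2 fold change 1.12, SE 0.29, limma adjusted p = 0.00468) and fell between Day6 and Day8 (log2 fold change -1.20, SE 0.29, limma adjusted p = 0.00853), a call lost in a fit of these 6 libraries alone (adjusted p = 0.107). The step from MCE1 to MCE2 was not called although every MCE2 library was above every MCE1 library (log2 fold change 0.60, SE 0.29, limma adjusted p = 0.114), and the step to Day4 was not called either (log2 fold change -0.47, SE 0.29, limma adjusted p = 0.198). Fits of the 6 libraries compared alone called both (adjusted p = 0.0262 and 0.0395). Day8 and Control overlapped (log2 fold change -0.31, SE 0.29, limma adjusted p = 0.353). Summed, both H4 genes stood at 19.1 ± 1.79 TPM at MCE2 against 4.46 ± 0.664 in Control and 4.40 ± 2.36 at Day8.

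The H2B genes, partners of H2A in the nucleosome, were the lowest of the set. Hist1h2bp shares its promoter stretch with Hist1h2an. It read 0.942, 0.476 and 0.803 TPM in Control, 0.392, 0.423 and 1.92 at MCE1, 0.942, 1.29 and 1.41 at MCE2, 0.891, 0.459 and 1.25 at Day4, 1.23, 0.413 and 1.06 at Day6 and 0.549, 0.0728 and 0.84 at Day8. These groups overlapped at every step, no step was called, and at MCE1 the log2 fold change was 0.05 with an SE of 0.28 (limma adjusted p = 0.903). The highest value, in MCE1 replicate 3, was far above both other MCE1 libraries.

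Hist1h2bq and Hist1h2br, listed on the same interval with the same AATAAA end, could not be separated. Hist1h2bq read 1.23, 0 and 0.894 TPM at MCE2, 2.17, 0 and 0 at Day4, 2.34, 1.87 and 1.53 at Day6 and 0, 0.356 and 0 at Day8, and it was listed at 0 in 7 of the 18 libraries. Hist1h2br read 0.21, 1.95 and 1.79, 0.461, 1.67 and 0.859, 0.577, 0.127 and 0.413 and 0.301, 1.25 and 1.16 TPM in the same libraries. In Day4 replicate 2 and MCE2 replicate 2, for instance, Hist1h2bq was listed at 0 while Hist1h2br was not. Their sums are therefore given for every group: 0.0369, 0.357 and 0.222 TPM in Control, 0.876, 0.656 and 0.979 at MCE1, 1.44, 1.95 and 2.68 at MCE2, 2.63, 1.67 and 0.859 at Day4, 2.91, 1.99 and 1.94 at Day6 and 0.301, 1.61 and 1.16 at Day8. The Control, MCE1 and MCE2 sums did not overlap, with the step to MCE1 not called (log2 fold change 0.61, SE 0.26, limma adjusted p = 0.0647) and that to MCE2 called (log2 fold change 0.70, SE 0.26, limma adjusted p = 0.0426). The former was called with a pseudocount of 0.1 (log2 fold change 1.77, adjusted p = 0.0126) and in a fit of these 6 libraries alone (adjusted p = 0.00797). The latter was lost without any of MCE1 replicates 1, 2 and 3 or MCE2 replicates 2 and 3 (adjusted p 0.0637 to 0.159), with a pseudocount of 0.1 (0.102), with no filter on low genes (0.0603) and with the replicate number as a block (0.0589). Day8 was called above Control (log2 fold change 0.70, SE 0.26, limma adjusted p = 0.0271), a call lost without Control replicate 1 or 3 or Day8 replicate 2 or 3 (adjusted p 0.0519 to 0.133) and in a fit of these 6 libraries alone (0.0617).

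Taken alone, Hist1h2bq was called lower at Day8 than at Day6 (log2 fold change -1.39, SE 0.39, limma adjusted p = 0.0194). This was lost without Day6 replicate 1 (adjusted p = 0.0646), Day8 replicate 1 (0.0569) or Day8 replicate 3 (0.0549) and with a pseudocount of 0.1 (0.0525). The sum with Hist1h2br was not called (log2 fold change -0.74, SE 0.26, limma adjusted p = 0.0563), except with median-ratio scaling (0.0495) and without Day8 replicate 2 (0.0247). Without Day4 replicate 1, Hist1h2bq was called higher at Day6 than at Day4 (1.53, adjusted p = 0.00248). Hist1h2br was not called at any step, with log2 fold change 0.72, SE 0.33, limma adjusted p = 0.0955 from MCE1 to MCE2. It was called there without MCE2 replicate 1 (1.13, adjusted p = 0.00697), and at Day8 against Control without Day8 replicate 1 (0.91, adjusted p = 0.0322, against log2 fold change 0.66, SE 0.33, limma adjusted p = 0.0883 with it).

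Hist1h2al, the H2A pseudogene that stands alone, rose at MCE1 with the other 3 H2A genes but rose again at Day4, where those fell. It read 3.74, 4.61 and 4.41 TPM in Control, 11.4, 11.4 and 10.5 at MCE1, 16.6, 16.3 and 11.1 at MCE2, 35.8, 37.1 and 37.5 at Day4, 41.7, 43.0 and 44.0 at Day6 and 36.0, 26.2 and 29.5 at Day8. Control lay below every other library, and all 9 libraries of the last 3 groups lay above all 9 of the first 3. Hist1h2al rose at MCE1 (log2 fold change 1.21, SE 0.13, limma adjusted p = 1.2e-06) and at Day4 (log2 fold change 1.29, SE 0.13, limma adjusted p = 7.29e-07), and Day8 was 7.19-fold above Control in the mean (log2 fold change 2.58, SE 0.13, limma adjusted p = 4.18e-11). The step from MCE1 to MCE2 was small (log2 fold change 0.35, SE 0.13, limma adjusted p = 0.0421), with overlapping libraries, and its call was lost without any one of MCE1 replicates 1, 2 and 3 or MCE2 replicates 1 and 2 (adjusted p 0.0724 to 0.177), and with no filter on low genes (adjusted p = 0.059) or in a fit of these 6 libraries alone (adjusted p = 0.113). The Day8 libraries were below those of Day6 (log2 fold change -0.49, SE 0.13, limma adjusted p = 0.0156), a call lost without Day8 replicate 2 (adjusted p = 0.0667) and in a fit of these 6 libraries alone (0.0539). Its listed interval spans 2983 bases, against 339 in the GENCODE model, and the tables do not say which part the reads came from.

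Counted over the set, 6 of the 9 genes were called higher at MCE1 than in Control and 0 lower, where 22% of all tested genes were called higher and 29.4% lower (51.4% in either direction). These were Hist1h2an, Hist1h2ao, Hist1h2ap, Hist1h2al, Hist1h4m and Hist1h4n, and their libraries did not overlap. Hist1h2ap lies within Hist1h2ao, and Hist1h4m shares 89.8% of its 50-base stretches with Hist1h4n. Calls of these genes, here and in the counts below, are therefore not independent of each other. Taken as 1 sum, Hist1h2ao and Hist1h2ap were called higher (limma adjusted p = 0.000829). The median log2 fold change of the 9 was 1.12, beside -0.06 over all genes. From MCE1 to MCE2, 2 genes were called higher (Hist1h2al and Hist1h4m) and 2 lower (Hist1h2an and Hist1h2ap), beside 17.7% and 25.2% of all genes (42.8% in either direction), and the median was 0.30 beside -0.05. Without MCE1 replicate 1, MCE1 replicate 3 or MCE2 replicate 2 the count was 2 in place of 4. From MCE2 to Day4, Hist1h2al was called higher and 3 genes lower (Hist1h2an, Hist1h2ao and Hist1h2ap), beside 29.6% and 22% (51.6% in either direction), with a median of -0.26 beside 0.07.

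Between Day4 and Day6 limma called 0 of the 9 genes, beside 25.7% of all genes called in either direction. Only Hist1h2bq had an unadjusted p under 0.05 there (1 of 9), and only the omission of Day4 replicate 1 gave a call (1). The median was -0.30 beside 0.02. Between Day6 and Day8, 0 were called higher and 5 lower (Hist1h2ap, Hist1h2al, Hist1h2bq, Hist1h4m and Hist1h4n), beside 10.1% and 11.6% (21.7% in either direction). The median was -0.49 beside 0.00 over all genes. This count was 3 without Day6 replicate 1, Day8 replicate 2 or Day8 replicate 3, and 1 in a fit of these 6 libraries alone. The shares of all genes called in these fits were not computed. Against Control, Day8 had 1 gene called higher (Hist1h2al) and 3 lower (Hist1h2an, Hist1h2ao and Hist1h2ap), beside 31.7% and 39.7% (71.4% in either direction), with a median of -0.25 beside -0.11.

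**Figure D4:**
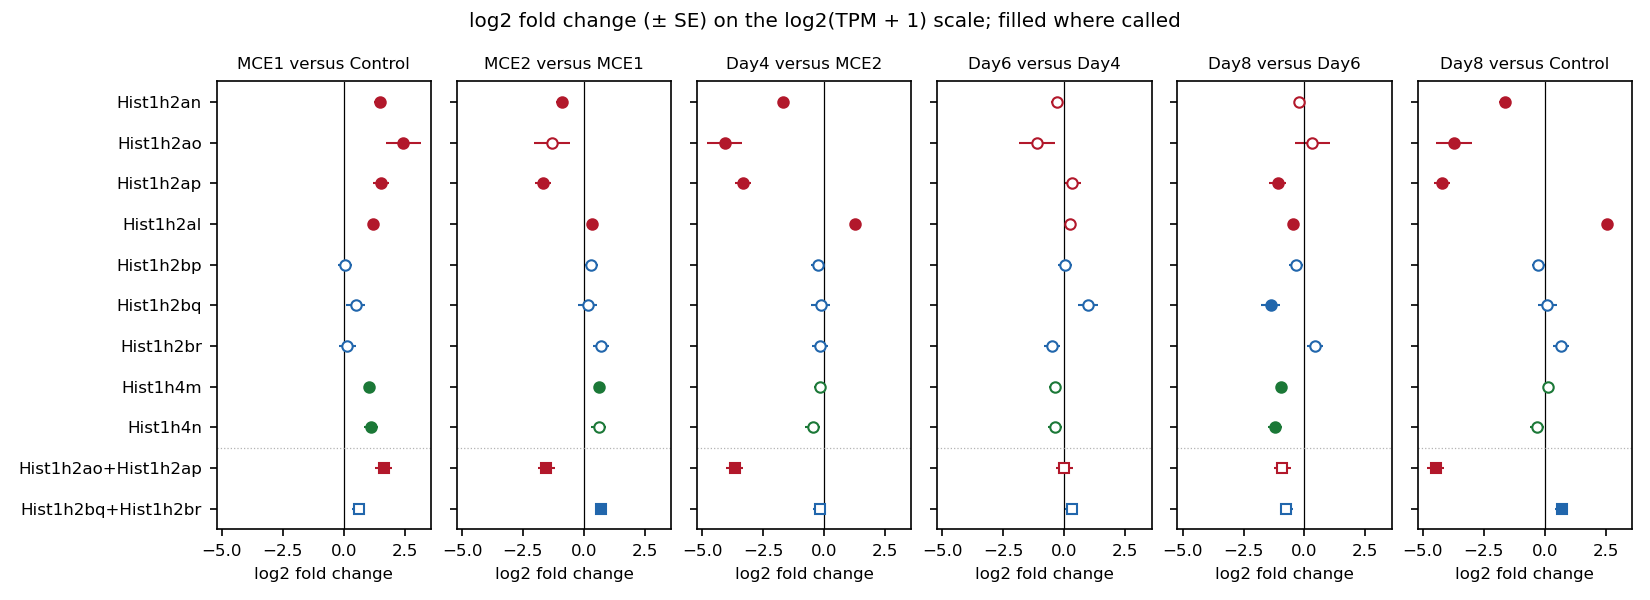
Log2 fold change ± SE of each gene (circles) and of both summed pairs (squares) in the 5 steps of the course and at Day8 against Control, on the log2(TPM + 1) scale. Filled symbols were called at a limma adjusted p under 0.05. At MCE1 the filled circles are 6 genes, all to the right of 0. At Day4 they are 3 H2A genes to the left and the H2A gene Hist1h2al to the right.

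The steps share groups with each other, and MCE1 and Day8 share the Control libraries. Fold changes on the log2(TPM + 1) scale understate changes of genes with few TPM, which applies most to the H2B genes. Median-ratio scaling moved the median of all genes at Day8 against Control from -0.11 to 0.01 and left all 4 of these calls.

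Genes of DNA synthesis were highest at MCE1, as Hist1h2an, Hist1h2ao and Hist1h2ap were. The 28 S phase genes, which make DNA building blocks and the replication machinery, summed to 4856 to 4994 TPM at MCE1 against 3525 to 3737 in Control, 1906 to 2073 at MCE2, 795 to 819 at Day4, 850 to 891 at Day6 and 546 to 567 at Day8. Of 27 tested, 15 were called higher and 1 lower at MCE1 (22% and 29.4% of all genes), 27 were lower at MCE2 than at MCE1 (25.2% of all genes), and from Day4 to Day6 7 were called higher and 0 lower (14.5% and 11.2% of all genes). Pcna, the clamp that holds DNA polymerase on its template, changed by 0.60 (SE 0.05) at MCE1 and by -1.41 (SE 0.05) at MCE2 on the log2 scale, and Rrm2, a subunit of ribonucleotide reductase, by 0.93 and -1.49 (SE 0.07 each). At MCE2, where these genes were called lower, Hist1h4m was called higher, a call lost without MCE1 replicate 1 or 3 or MCE2 replicate 1 or 2. Hist1h4n had its highest mean there, but its step from MCE1 was not called (limma adjusted p = 0.114). The part of DNA synthesis in any of the changes was not tested.

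Counts for the gene lists below stand beside 22% of all genes called higher and 29.4% lower at MCE1, 17.7% and 25.2% at MCE2 against MCE1, and 31.7% and 39.7% at Day8 against Control. Of the 22 genes for histone gene transcription and 3′ end formation, 21 were tested. At MCE1 9 were called higher and 3 lower (median 0.13), at MCE2 against MCE1 2 higher and 11 lower (-0.33), and at Day8 against Control 1 higher and 16 lower (-0.85). Slbp, whose protein binds the stem-loop, rose by 0.63 (SE 0.10) at MCE1, fell by 1.18 at MCE2 and changed by -1.07 at Day8 against Control, all on the log2 scale. Of the 17 cleavage and polyadenylation genes, 2 were called higher and 1 lower at MCE1 (5 in all with median-ratio scaling), 0 higher and 8 lower at MCE2, and 0 higher and 14 lower at Day8 against Control. Histone chaperones, which carry histones to DNA, had 0 of 20 called higher and 16 lower at MCE2, and 0 higher and 19 lower at Day8 against Control (median -1.12). At MCE1 5 were higher and 2 lower, and 12 in all were called with median-ratio scaling. The share of all genes called with that scaling was not computed, here or for the polyadenylation genes.

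Histone genes outside the clusters stood at far higher levels. Many of them encode variants made throughout the cell cycle, from mRNAs with ordinary poly(A) tails. The 15 of 16 listed summed to 2678 to 2754 TPM in Control, 4348 to 4376 at MCE1 and 1930 to 1996 at Day8. At MCE1 9 of 12 tested were called higher and 3 lower, at MCE2 0 higher and 7 lower, and at Day8 against Control 3 higher and 6 lower. H3f3b, a gene of the replacement histone H3.3, rose by 0.85 (SE 0.05) at MCE1 and fell by 0.73 at MCE2. H2az1, the gene of the variant H2A.Z, rose by 0.34 (SE 0.07) and fell by 0.98, both on the log2 scale.

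The 60 clustered histone genes under newer symbols, identified through RefSeq synonyms and set beside the 9 after the tables had been seen, had H2A, H2B and H4 types as well; the shares of all genes called are those given above for the lists, with 29.6% higher and 22% lower from MCE2 to Day4. The 15 H2A genes among them summed to 350.5 to 439 TPM at MCE1 (139 to 158 in Control), 179 to 249 at MCE2, 146 to 154 at Day4, 134 to 149 at Day6 and 90.8 to 105.7 at Day8. Of 14 tested, 10 were called higher and 0 lower at MCE1, and from MCE1 to MCE2 0 were called higher and 8 lower. From MCE2 to Day4 1 was higher and 7 lower, and at Day8 against Control 2 were higher and 8 lower. The 16 H2B genes summed to 30.3 to 35.1 TPM in Control, 78.1 to 83.9 at MCE1, 143 to 173 at MCE2, 132 to 155 at Day4, 152 to 183 at Day6 and 91.6 to 112 at Day8, so that MCE2 and Day6 overlapped. Of 14 tested, 9 were called higher at MCE1 and 8 higher from MCE1 to MCE2, with 0 lower at either step. With a filter of 5 TPM the count at MCE2 was 5, among fewer genes tested. That filter left out H2bc6, H2bc7 and H2bc15, which were among the 8. Of these 8, H2bc6 and H2bc7 had not been called at MCE1. The 11 H4 genes summed to 16.1 to 19.3 TPM in Control, 47.2 to 51.9 at MCE1, 70.3 to 85.9 at MCE2, 58.7 to 73.1 at Day4, 72.8 to 88.4 at Day6 and 31.2 to 51.8 at Day8, again with MCE2 and Day6 overlapping. Of 10 tested, 6 were called higher at MCE1, and at MCE2 4 higher and 0 lower. The latter count was 2 with a pseudocount of 0.1 and without MCE1 replicate 1, MCE1 replicate 2 or MCE2 replicate 2. Whether the 9 and the 60 differ was not tested. Nor are they separate in sequence: Hist1h2an shared 80.5% of its 50-base stretches with Hist1h2ah, listed among the 60 as H2ac12. Reads that match copies in both sets may be part of both levels, which was not tested.

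**Figure D5:**
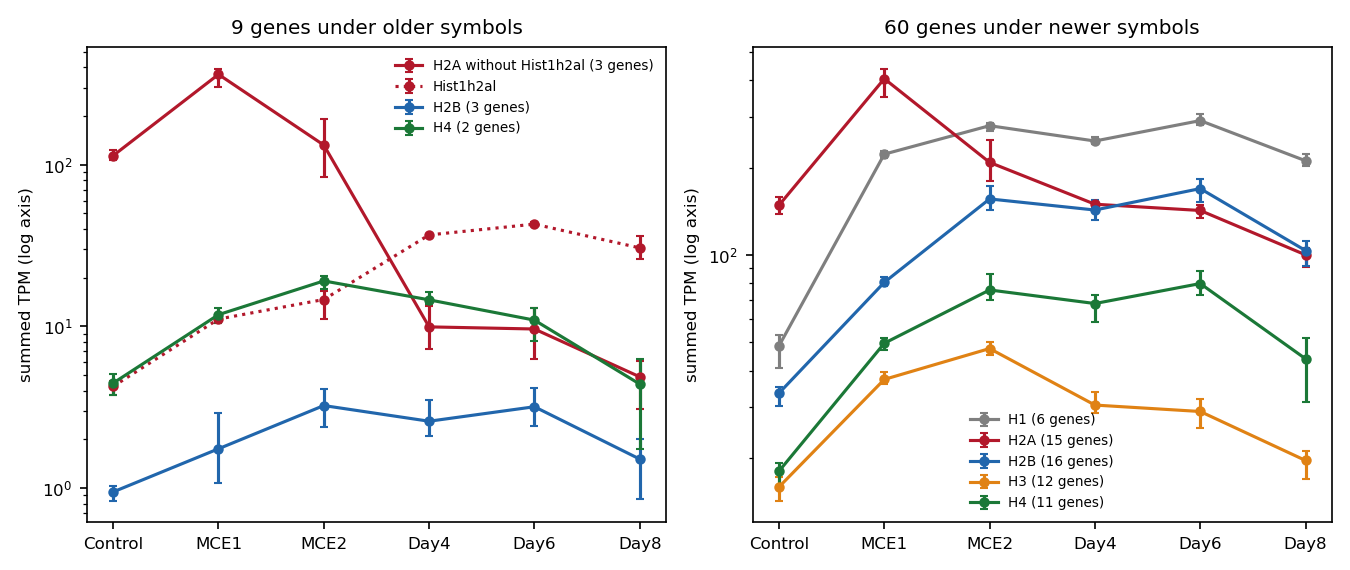
Summed TPM by histone type in each group for the 9 genes (left; Hist1h2al apart) and for the 60 under newer symbols (right), as group means with bars from the lowest to the highest library, on log axes. H2A sums are highest at MCE1 in both panels, and H4 sums rise further at MCE2. On the right H2B and H4 sums are as high at Day6. Copies in both panels share sequence, so the panels may draw on the same reads.

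Near copies there also stood at opposite levels between libraries of 1 group. H2ac18 (older name Hist2h2aa1), like Hist1h2al low in Control (6.36, 8.96 and 9.08 TPM) and high at Day6, read 72.5, 74.5 and 73.6 TPM at Day6 and 55.8, 2.43 and 1.71 TPM at Day8, while its near copy H2ac19 (Hist2h2aa2) read 3.04, 4.91 and 5.53 TPM and then 2.22, 52.3 and 53.7 TPM. At Day8 the higher value stood under H2ac18 in replicate 1 and under H2ac19 in replicates 2 and 3.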

How the data were processed

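Polyadenylated RNA of 3T3-L1 cells was sequenced in 18 libraries, 6 groups of 3 taken from the sample titles. Per the submitters' processing notes, reads went through FastQC, cutadapt, HISAT2 (mm9) and StringTie, with no versions; the annotation and the handling of reads that match several copies are not given in the sources used here. The authors deposited TPM per gene and library, which keeps no depth; the sums were 869497 to 880273 TPM. Values were not rescaled. The 12695 genes that reached 1 TPM in 3 or more libraries entered limma 3.58.1 (run in R 4.3.3) as log2(TPM + 1), fitted with a mean for each group and moderated variances (trend, robust), 2-sided tests and Benjamini-Hochberg adjustment over all genes tested. The threshold for a call was an adjusted p of 0.05. The fit was tested on simulated data. Means and SDs are over 3 libraries.

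All 9 genes matching the name rule could be named, and of each gene list up to 3 with the highest mean TPM. The genes, lists and comparisons were chosen with earlier results of these data known. H2ac18 and H2ac19 were singled out after their values were seen. One gene of the lists, H2afb1, had no row. Alternatives were a pseudocount of 0.1, no filter, a filter of 5 TPM, median-ratio scaling, quantile normalization, a replicate block, a fit of the 6 libraries compared alone, and each library left out in turn; the sums of overlapping pairs were added after seeing the data. Python 3.11.15 was used with numpy 2.4.6, pandas 2.3.3 and matplotlib 3.10.9.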

Additional observations from a re-analysis of the deposited data

How the results depend on the processing

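Of 684 refitted log2 fold changes of single genes under the alternatives, 29 lost and 8 gained a call and 0 called values changed direction; of 150 for the summed pairs, 14 lost and 6 gained one. For the 9 genes, the counts of called genes stayed within 1.5 times under both scalings, every filter and pseudocount and the block. The share of all genes called was computed for the main fit only, so counts under the alternatives stand without it. A fit of the 6 libraries compared alone gave 1 call in place of 5 from Day6 to Day8. With each library left out in turn, the count was 5 to 6 at MCE1 against Control, 2 to 4 from MCE1 to MCE2, 4 from MCE2 to Day4, 0 to 1 from Day4 to Day6, 3 to 5 from Day6 to Day8, 4 to 5 at Day8 against Control and 6 to 8 in the F test. A filter of 5 TPM kept 6 of the 9 genes. For the summed pair Hist1h2bq and Hist1h2br, quantile normalization ended the call at Day8 against Control (adjusted p = 0.118) and made one at MCE1 against Control (0.0293). The replicate number as a block changed 3 calls of single genes. Hist1h2br was called at MCE2 against MCE1 (adjusted p = 0.037) and at Day8 against Control (0.0341), where the count was then 5, and Hist1h2al was no longer called at MCE2 against MCE1 (0.0512). The block gave 6, 4, 4, 0 and 5 calls in the 5 steps and 8 in the F test. Same-numbered libraries did not deviate together (r across genes -0.07 to 0.09 over 45 pairs, against -0.11 to 0.14 over 90 pairs with other numbers), so the numbers were not taken to pair libraries. Summed over the 9 genes, the Control level was 112 TPM with median-ratio scaling in place of 124. Depth is unknown, so how much of the scatter near 1 TPM is counting error cannot be given.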
